A study of Mus musculus with 12 samples.

Results

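Mammary glands of pregnant mice given methionine partly as the dipeptide methionyl-methionine were compared with glands of mice on the control diet. The comparison took every library of the 2 groups, 4 Met-Met libraries and 4 Control libraries out of the 12 libraries of the study, and ran across all genes that reached a mean of 1 FPKM, which were 11818 of 21956 protein-coding genes. All animals were ICR mice, an outbred stock, and the 4th inguinal gland was taken on pregnancy day 17. Met-Met mice ate a diet without enough methionine from the start of pregnancy and received intraperitoneal injections; the injected methionine equalled 35% of what the control diet held, and 25% of it was replaced by the dipeptide. The remaining 4 libraries are from the Met group, treated in the same way with free methionine alone. Nothing beyond the name of a control diet is given for the Control mice, so diet, injection and the amount and form of methionine cannot be told apart in this comparison. The labels do not say that the libraries of a group are from separate mice, so p-values measure the spread between these libraries.

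By late pregnancy the mouse mammary gland has filled much of its fat pad with alveoli, whose luminal cells begin to make caseins, whey proteins, lactose and milk fat under the control of prolactin, STAT5 and ELF5. Methionine starts protein chains and, as S-adenosylmethionine, gives methyl groups. Shortage of an amino acid leaves tRNAs uncharged, which activates the kinase GCN2 and the transcription factor ATF4, and ATF4 raises genes of amino acid synthesis, uptake and tRNA charging. Low cholesterol in the endoplasmic reticulum (ER) releases SREBP2, which raises the enzymes of cholesterol synthesis, and unfolded protein in the ER acts through ATF6 and XBP1 to raise chaperones.

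RNA was measured as FPKM (fragments scaled by transcript length and by mapped fragments) per transcript, summed here per gene and divided by 1 factor per library (0.815 to 1.2 over the 12 libraries). All levels below are in these scaled FPKM, and log2 fold changes are Met-Met minus Control on log2(scaled FPKM + 1), with their standard error (SE). Adjusted p-values are from limma with Benjamini-Hochberg adjustment over all genes tested, and genes with an adjusted p under 0.05 are called. Read totals are unknown. From the steps between low values, the depth relative to Control 1 was 0.935 to 1.11 in Met-Met libraries, against 0.915 to 1.06 in Control libraries.

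The libraries differed in the markers of several cell types. Markers of luminal secretory cells, the defining cells of the labelled tissue, were high in all 8 libraries, with a mean log2(scaled FPKM + 1) of 8.04 to 8.41 in Met-Met libraries, against 7.80 to 8.36 in Control libraries. The 9 tested B cell markers had a mean of 1.46, 0.143, 1.44 and 0.219 in Met-Met 1 to 4, against 2.68, 3.16, 3.20 and 0.0949 in Control 1 to 4, and the 12 T cell markers split the same libraries, with 0.284 to 1.63 in Met-Met, against 0.449 to 3.07 in Control. Lymphocyte RNA was thus near absent in Met-Met 2, Met-Met 4 and Control 4, where Blk was at 0 in Met-Met 4, Cd5 in Met-Met 2 and Fcer2a and Pax5 in Control 4. The inguinal gland surrounds a lymph node, and the labels do not say whether it was removed. Markers of white adipocytes had a mean of 4.44, 4.01, 4.95 and 5.23 in Met-Met libraries, against 6.20, 6.19, 5.92 and 6.11 in Control libraries, erythrocyte markers 1.56 to 3.98 against 4.83 to 6.45, and endothelial markers 2.74 to 3.24 against 3.29 to 3.42; none of these 3 overlapped between the groups. In whole tissue, fewer cells of a type and less RNA per cell cannot be told apart. The part of these cell types in the results that follow was not tested beyond the values given beside them. Met-Met 2 also held 9628 scaled FPKM of Gm26917, against 80.5 to 102 in the other Met-Met libraries and 65.8 to 83.0 in Control libraries.

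**Figure D1:**
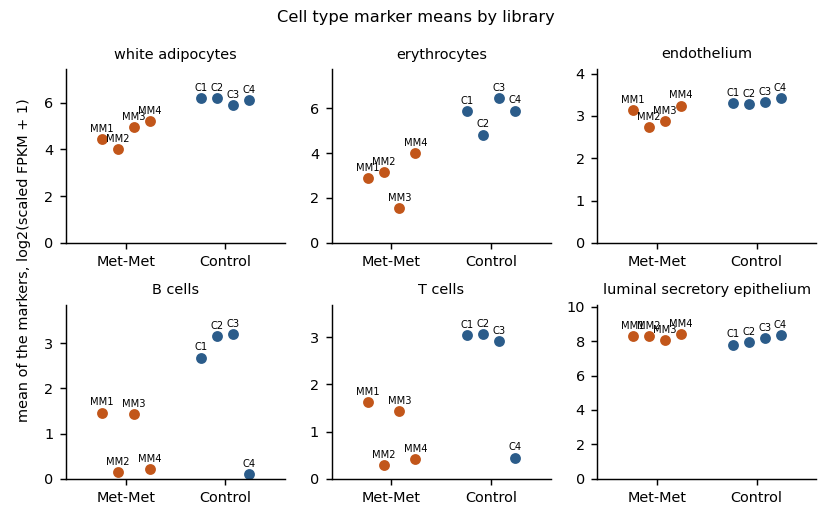
Mean log2(scaled FPKM + 1) of the markers of 6 cell types in each library, Met-Met on the left and Control on the right, 1 dot a library with its name above it (n = 4 each). Adipocyte, erythrocyte and endothelial markers were lower in every Met-Met library than in every Control library, while lymphocyte markers split both groups.

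Of the 11818 genes, 2376 were called (20.1%), 1277 higher in Met-Met (10.8%) and 1099 lower (9.3%). At 2-fold or more, 76 called genes were higher (0.643%) and 161 were lower (1.36%). The values of the 4 Met-Met and 4 Control libraries did not overlap for 3189 genes (27.0%). The median log2 fold change over all genes was -0.00, with quartiles of -0.20 and 0.19. Without the division by library, 499 genes were called higher and 1583 lower, and the median moved to -0.12, so that changes below about that size turn on the scaling. Calls of larger changes could turn on it too, and 1594 of the 2376 calls were kept. Insig1 (1.49) and Hspa5 (1.02) were among those lost, with limma adjusted p-values of 0.0519 and 0.0534. Within the 5 libraries that held lymphocyte RNA (Met-Met 1 and 3 against Control 1 to 3, in a fit with Met 4), 820 genes were called higher and 1036 lower, and 1299 of the calls over all libraries were among them. Among the libraries without it, the lone Control 4, assumed to vary like the other libraries, left 4 calls, and 1466 genes at an unadjusted p under 0.05. Leaving out Control 1 or Control 2 left 1305 and 1361 calls. With the mean of the adipocyte markers as a covariate, no gene was called by limma (1295 had an unadjusted p under 0.05); that mean does not overlap between the groups, so the fit cannot hold adipocyte RNA and the diet apart. With the mean of the B cell markers as a covariate, 1396 genes were called. Among the coding genes given below with an SE, the calls then lost were those of Lalba (adjusted p 0.282), Saa1 (0.186), Saa2 (0.117), Hmgcs1 (0.113), Insig1 (0.0964), Mars (0.0763), Cenpa (0.0687), Slc38a3 (0.0628), Slc1a4 (0.0612), Gnmt (0.0610), Dbp (0.0608), Slc1a5 (0.0597), Adm2 (0.0548) and Lcn2 (0.0533).

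**Figure D2:**
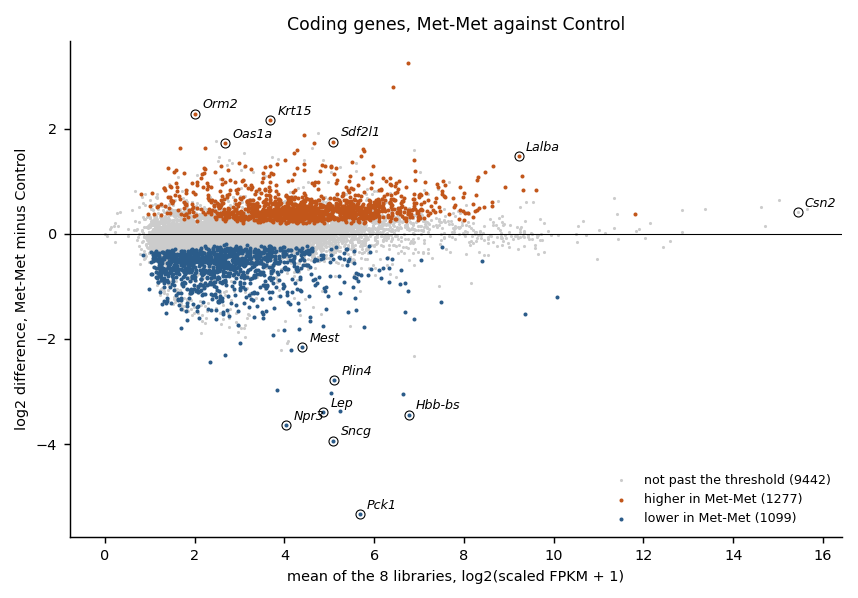
Each dot is 1 of 11818 genes, with the mean log2(scaled FPKM + 1) of the 8 libraries on the x axis and the log2 fold change of Met-Met minus Control on the y axis. Orange dots are the 1277 genes called higher, blue dots the 1099 called lower and grey dots the rest; the blue dots reach further from 0 than the orange ones.

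Gene lists spread widely around the median of all genes. The medians ran from 1.16 for cholesterol synthesis and 0.74 for ER chaperones to -1.16 for white adipocyte markers, -1.44 for T cell markers, -1.47 for B cell markers and -3.04 for erythrocyte markers. Cytosolic ribosomal protein genes sat at -0.03 with none of 79 called by limma (4 at an unadjusted p under 0.05; 2 called lower without the library scaling and 10 with quantile normalization), and the kinases and adaptors of PI3K, AKT and mTORC1 at -0.02.

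**Figure D3:**
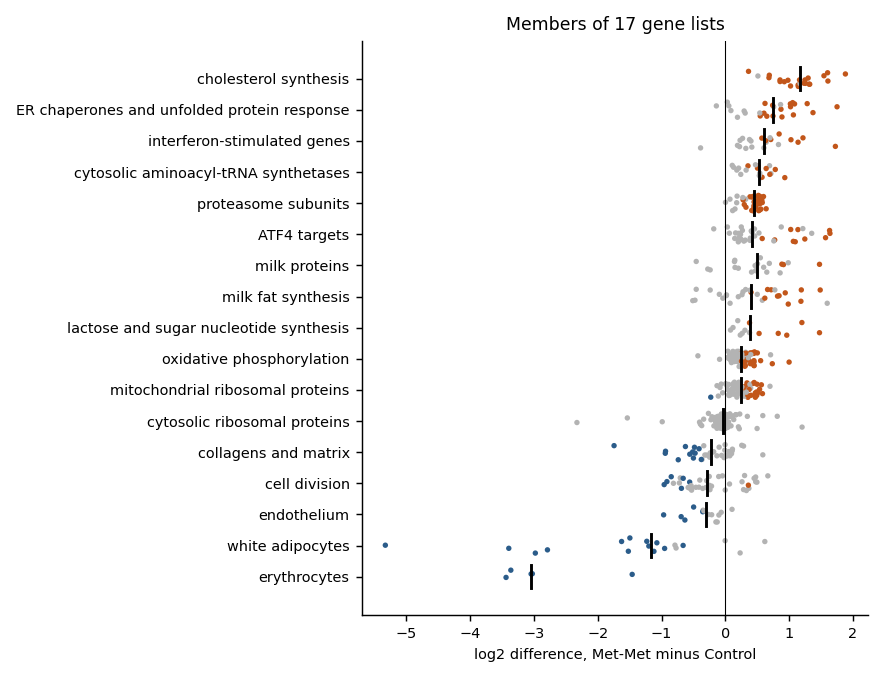
Log2 fold changes of Met-Met minus Control for the members of each gene list, 1 dot a gene, orange where called higher, blue where called lower and grey otherwise, with a black bar at the list's median. Cholesterol synthesis, ER chaperones and the proteasome stand to the right of 0, and white adipocyte and erythrocyte markers to the left.

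Genes of cholesterol synthesis were the list most shifted upwards, with 21 of 23 tested members called higher and none lower (10.8% of all genes were called higher), and a median log2 fold change of 1.16, against -0.00 for all genes. The 2 members not called were also above 0, Idi1 at 1.17 and Hsd17b7 at 0.51. Fdps, which makes farnesyl pyrophosphate, was at 64.4, 83.1, 62.3 and 111 in Met-Met libraries, against 22.8, 21.1, 25.1 and 31.9 in Control libraries (log2 fold change 1.61, SE 0.24, limma adjusted p = 0.00149). The groups did not overlap, and Met-Met 2 and 4 were above Met-Met 1 and 3. Sqle, which commits squalene to sterols, was at 37.1, 55.0, 34.6 and 57.7 in Met-Met libraries, against 18.3, 16.5, 18.1 and 17.9 in Control libraries (1.3, SE 0.28, limma adjusted p = 0.00859). Cyp51, the lanosterol demethylase, was at 19.1, 32.2, 24 and 31.9 in Met-Met libraries, against 8.24, 8.08, 7.47 and 9.63 in Control libraries (1.55, SE 0.33, limma adjusted p = 0.00801). Msmo1, the next methyl oxidase of the pathway, rose by 1.6 (SE 0.35), Dhcr7, the last reductase to cholesterol, by 1.32 (SE 0.24), Acat2, which makes acetoacetyl-CoA, by 1.25 (SE 0.20) and the mevalonate kinase Mvk by 0.92 (SE 0.17), with limma adjusted p-values of 0.00896, 0.00354, 0.00218 and 0.00432, and in none of them did the groups overlap.

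Across the list, Met-Met 2 and Met-Met 4 were highest: the mean log2(scaled FPKM + 1) was 4.29, 4.85, 4.29 and 4.96 in Met-Met libraries, against 3.38 to 3.55 in Control libraries. These are the Met-Met libraries with little lymphocyte RNA, and Control 4, which also has little, stood at 3.55, the highest of the Control libraries. The median of the list was 0.83 within the libraries with lymphocyte RNA and 1.34 within those without. Leaving out Met-Met 2 left 14 members called, and 18 were called without the library scaling. Insig1, which holds SREBP2 in the ER when sterols are plentiful, was at 37.1, 105, 44.0 and 128 in Met-Met libraries, against 32.6, 23.1, 21.6 and 19.8 in Control libraries (1.49, SE 0.43, limma adjusted p = 0.0319), and its call was lost without any 1 library other than Met-Met 1 or 3 (adjusted p 0.050 to 0.0880) and without the library scaling (0.0519).

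**Figure D4:**
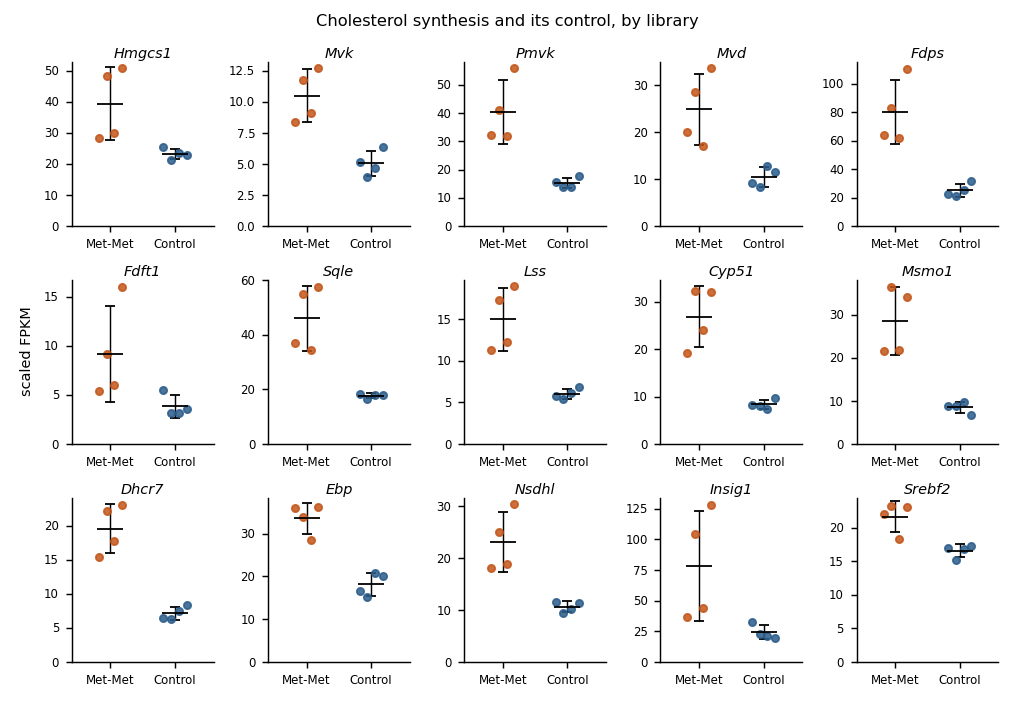
Scaled FPKM of 15 genes of cholesterol synthesis and its control in each library, Met-Met on the left and Control on the right, 1 dot a library, with black bars for the mean ± SD (n = 4 each). In most panels Met-Met 2 and 4 lie above Met-Met 1 and 3, as with Sqle at 55.0 and 57.7 against 37.1 and 34.6.

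The promoter of Hmgcs1, the HMG-CoA synthase, shows the letters that SREBP promoters are known for. Of 16 tested members of the list with a RefSeq promoter (GRCm38.p6, 250 bases upstream of the start), Hmgcs1 alone held TCACNCCAC, the sterol regulatory element, on either strand, against 1.2% of 9246 tested genes; 15 of 16 held CCAAT, where the partner factor NF-Y binds, against 40.5%. The promoter lies at chr13:119690101-119690350 on the plus strand and is given 5′ to 3′ with both kinds of match in capitals (ATTGG is CCAAT on the other strand). A match is a description of the letters and not a site shown to be used.
Hmgcs1: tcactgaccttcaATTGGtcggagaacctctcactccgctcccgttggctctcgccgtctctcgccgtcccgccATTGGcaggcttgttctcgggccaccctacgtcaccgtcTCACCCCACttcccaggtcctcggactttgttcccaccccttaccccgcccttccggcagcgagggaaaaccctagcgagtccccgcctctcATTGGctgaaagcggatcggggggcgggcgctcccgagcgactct
Hmgcs1 itself was at 28.4, 48.4, 30.1 and 50.9 in Met-Met libraries, against 25.5, 21.4, 23.4 and 22.9 in Control libraries (0.69, SE 0.20, limma adjusted p = 0.0280), without overlap. The call was lost without Met-Met 2 (adjusted p 0.0760), Met-Met 4 (0.0776), Control 1 (0.0532), Control 2 (0.0772) or Control 3 (0.0550), and without the library scaling (0.0769).

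Of 26 tested genes of ER chaperones, folding enzymes and the unfolded protein response, 16 were called higher and none lower (10.8% of all genes were called higher), with a median of 0.74. Sdf2l1, a partner of the ER DNAJ chaperones, was at 61.8, 41.6, 54.3 and 47.5 in Met-Met libraries, against 12, 13.6, 21.3 and 12.2 in Control libraries (1.75, SE 0.22, limma adjusted p = 0.000746). Pdia6, a protein disulfide isomerase, was at 180, 148, 151 and 157 in Met-Met libraries, against 64.9, 71.6, 97.0 and 81.1 in Control libraries (1.02, SE 0.13, limma adjusted p = 0.000674). Calr, the lectin chaperone calreticulin, was at 723, 492, 519 and 537 in Met-Met libraries, against 214, 217, 270 and 224 in Control libraries (1.28, SE 0.18, limma adjusted p = 0.00112). The groups stood well apart in all 3 genes, with Control 3 the highest Control library in each. Hyou1, a large HSP70 relative, rose by 1.37 (SE 0.23), Dnajb11, a cochaperone, by 1.05 (SE 0.17) and Canx, calnexin, by 0.65 (SE 0.10), with limma adjusted p-values of 0.00242, 0.00245 and 0.00152. Hspa5, the chaperone BiP, was at 405, 388, 449 and 418 in Met-Met libraries, against 178, 202, 264 and 180 in Control libraries (1.02, SE 0.28, limma adjusted p = 0.0236). The Hspa5 call was lost without Met-Met 3 (adjusted p 0.0531), Met-Met 4 (0.0519), Control 1 (0.0679) or Control 2 (0.0581), and without the library scaling (0.0534). The sensors and factors themselves were not called: Xbp1 stood at 0.06, Atf6 at 0.03 and Ern1 at -0.14. The other members not called were Creld2 (0.87), Manf (0.76), Syvn1 (0.54), Hspa13 (0.31), Dnajb9 (0.29), Herpud1 (0.19) and Edem1 (0.09). The list kept 13 to 16 calls when any 1 library was left out, and its median was 0.75 within the libraries with lymphocyte RNA and 0.83 within those without.

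The full ER stress response element, CCAAT followed after 9 further bases by CCACG, on either strand, which ATF6 reads with NF-Y, was found in 8 of the 21 list members with a RefSeq promoter, against 0.151% of tested genes. It stood in 6 of the 14 members with a promoter that were called higher. The 3 promoters that follow, from Pdia6 (chr12:17266339-17266588, plus strand), Hspa5 (chr2:34771840-34772089, plus strand) and Calr (chr8:84846932-84847181, minus strand), carry it in capitals, with its last base between 47 and 144 bases upstream of the start. In Calr it lies in the reverse orientation.
Pdia6: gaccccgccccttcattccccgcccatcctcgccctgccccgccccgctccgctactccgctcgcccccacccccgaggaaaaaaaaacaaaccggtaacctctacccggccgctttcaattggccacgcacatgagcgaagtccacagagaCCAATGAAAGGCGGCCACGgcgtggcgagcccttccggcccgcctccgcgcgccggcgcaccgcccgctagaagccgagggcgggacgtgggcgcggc
Hspa5: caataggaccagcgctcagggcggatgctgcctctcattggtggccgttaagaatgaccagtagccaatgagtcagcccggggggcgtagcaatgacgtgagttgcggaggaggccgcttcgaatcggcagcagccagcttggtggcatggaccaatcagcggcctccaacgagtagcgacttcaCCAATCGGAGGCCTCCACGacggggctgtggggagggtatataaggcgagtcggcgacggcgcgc
Calr: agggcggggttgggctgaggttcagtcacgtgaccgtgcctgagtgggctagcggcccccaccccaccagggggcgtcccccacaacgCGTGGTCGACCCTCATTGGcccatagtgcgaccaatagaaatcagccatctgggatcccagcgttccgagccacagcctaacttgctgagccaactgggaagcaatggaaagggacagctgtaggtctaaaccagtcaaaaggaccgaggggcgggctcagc

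Subunits of the proteasome, which degrades ubiquitin-tagged and misfolded proteins, rose by less and more evenly. Of 37 tested, 29 were called higher and none lower, beside 10.8% and 9.3% of all genes, with a median of 0.45 and 27 to 29 calls when any 1 library was left out. Psmc4, an ATPase of the 19S cap, was at 56.7, 49.6, 53.6 and 52.5 in Met-Met libraries, against 33.3, 32.3, 36.4 and 37.0 in Control libraries (0.60, SE 0.07, limma adjusted p = 0.000592). Psmb2, a subunit of the 20S core, was at 82.0, 75.3, 73.4 and 79.4 in Met-Met libraries, against 53.0, 47.9, 55.4 and 55.4 in Control libraries (0.54, SE 0.07, limma adjusted p = 0.00109). Neither overlapped between the groups. Of the immunoproteasome subunits, Psmb8 was called higher (0.52), while Psmb9 (0.00) and Psmb10 (0.11) were not. Without the library scaling, the median was 0.32 and 13 were called.

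Among the genes that ATF4 raises when amino acids are short, a subset rose: 10 of 36 tested were called higher and none lower, beside 10.8% and 9.3% of all genes, with a median of 0.41. Aldh1l2, a mitochondrial folate enzyme, was at 5.84, 6.09, 7.76 and 4.68 in Met-Met libraries, against 1.09, 0.972, 1.41 and 1.57 in Control libraries (1.64, SE 0.15, limma adjusted p = 0.000129). Asns, asparagine synthetase, was at 58.5, 51.8, 73.1 and 53.1 in Met-Met libraries, against 23.0, 23.7, 29.1 and 32.8 in Control libraries (1.10, SE 0.14, limma adjusted p = 0.000770). Atf5, a factor of the same response, was at 74.6, 70.0, 114 and 67.6 in Met-Met libraries, against 23.5, 22.8, 27.3 and 31.9 in Control libraries (1.57, SE 0.22, limma adjusted p = 0.00112). In all 3 the groups did not overlap, and Met-Met 3 was the highest library, as it was in the mean of the whole list (4.56). The serine synthesis enzymes Psat1 (1.14, SE 0.25, limma adjusted p = 0.00975) and Psph (1.03, SE 0.20, limma adjusted p = 0.00532) rose too. The classical stress genes of the response did not pass the threshold, though their folds were not small. Chac1, a glutathione-degrading enzyme, was at 7.66, 6.02, 18.8 and 5.06 in Met-Met libraries, against 1.31, 1.40, 4.82 and 4.31 in Control libraries (1.35, limma adjusted p = 0.135). The Chac1 groups did not overlap. Trib3, a pseudokinase, was at 7.81, 6.72, 18.3 and 6.47 in Met-Met libraries, against 3.22, 3.66, 4.50 and 6.99 in Control libraries (0.88, limma adjusted p = 0.0830), with Met-Met 4 below Control 4. Adm2, a peptide hormone gene, was called at 1.63 (SE 0.50, limma adjusted p = 0.0374) but lost its call without any 1 library other than Met-Met 4 (adjusted p 0.0527 to 0.0959). The median of the list was 0.65 within the libraries with lymphocyte RNA and 0.18 within those without.

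TGATGNAA, the letters of the C/EBP-ATF response element, stood in the promoters of 9 of 31 list members with one in RefSeq, against 2.47% of tested genes, but of the 7 of these members that were called higher only Asns held it. These letters are known from the nutrient-sensing response element of the human ASNS promoter. In the mouse Asns promoter (chr6:7693210-7693459, minus strand) they stand in capitals and end 16 bases upstream of the start.
Asns: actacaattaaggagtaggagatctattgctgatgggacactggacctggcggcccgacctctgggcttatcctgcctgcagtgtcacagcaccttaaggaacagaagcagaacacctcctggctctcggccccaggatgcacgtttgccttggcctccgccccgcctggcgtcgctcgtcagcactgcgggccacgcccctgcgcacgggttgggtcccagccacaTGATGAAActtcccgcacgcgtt

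Cytosolic aminoacyl-tRNA synthetases, several of them known ATF4 targets, were all above 0 (20 of 20), with a median of 0.52 and 8 called higher (10.8% of all genes were called higher). Nars, which charges the asparagine tRNA, was at 111, 93.7, 129 and 98.6 in Met-Met libraries, against 48.4, 48.1, 65.8 and 62.9 in Control libraries (0.93, SE 0.13, limma adjusted p = 0.00133). Lars, for leucine, rose by 0.51 (SE 0.11, limma adjusted p = 0.00706). Mars, which charges the methionine tRNA, was at 30.8, 26.0, 35.0 and 24.8 in Met-Met libraries, against 18.6, 18.2, 20.2 and 23.7 in Control libraries (0.50, SE 0.13, limma adjusted p = 0.0179). The Mars groups did not overlap, but the Mars call did not pass once Control 1 (adjusted p 0.0562) or Control 2 (0.0574) was left out. The list had 4 calls without Control 1 or Control 2, 5 without Met-Met 1 or Met-Met 3, and 1 without the library scaling, where Lars and Mars had adjusted p-values of 0.0649 and 0.0937.

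Of 28 tested genes of the methionine cycle, transsulfuration and polyamine synthesis, 6 were called higher and 2 lower (10.8% of all genes were called higher and 9.3% lower), with a median of 0.17. Odc1, ornithine decarboxylase of polyamine synthesis, was at 110, 76.2, 91.1 and 82.9 in Met-Met libraries, against 41.9, 46.5, 58.0 and 51.5 in Control libraries (0.85, SE 0.13, limma adjusted p = 0.00204). Cth, which releases cysteine from cystathionine, was at 4.55, 3.39, 10.2 and 4.35 in Met-Met libraries, against 1.68, 1.45, 1.94 and 1.39 in Control libraries (1.25, SE 0.30, limma adjusted p = 0.0144). Both genes were separated between the groups, with Met-Met 3 far above the other Met-Met libraries for Cth. Gnmt, which consumes S-adenosylmethionine to methylate glycine, rose by 0.83 (SE 0.18, limma adjusted p = 0.00860). Nnmt, which methylates nicotinamide and is abundant in fat, was at 1.95, 0.633, 1.29 and 3.03 in Met-Met libraries, against 6.53, 4.92, 5.85 and 4.17 in Control libraries (-1.29, SE 0.25, limma adjusted p = 0.00522). Csad, of taurine synthesis, fell by 0.55 (SE 0.09, limma adjusted p = 0.00262). Mat2a, which makes S-adenosylmethionine outside the liver, was at 15.3, 27.6, 21.0 and 23.0 in Met-Met libraries, against 27.1, 27.9, 24.1 and 22.0 in Control libraries, and the groups overlapped (-0.23, SE 0.38, limma adjusted p = 0.706).

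Of 29 amino acid transporters tested, 7 were called higher and 3 lower, beside 10.8% and 9.3% of all genes, with a median of 0.18. Slc7a5, the light chain of the large neutral amino acid exchanger LAT1 that carries methionine, was at 122, 89.3, 103 and 80.6 in Met-Met libraries, against 44.4, 34.4, 52.2 and 56.8 in Control libraries (1.07, SE 0.19, limma adjusted p = 0.00322). Slc1a5, the glutamine and neutral amino acid exchanger, was lower, at 24.6, 22.5, 49.6 and 24.8 in Met-Met libraries, against 60.4, 58.8, 59.4 and 58.5 in Control libraries (-1.02, SE 0.22, limma adjusted p = 0.00879). Met-Met 3 alone came near the Control libraries for Slc1a5. Slc1a4, of the same family, rose by 0.87 (SE 0.21, limma adjusted p = 0.0149) and Slc38a3, a glutamine transporter, by 0.81 (SE 0.18, limma adjusted p = 0.0101). The number of transporters called higher was 3 without Met-Met 1, Control 1 or Control 2 and 4 without Met-Met 2.

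Dipeptides enter cells through peptide transporters and are split by peptidases. Slc15a2, the peptide transporter PEPT2, was at 24.3, 18.9, 19.1 and 17.0 in Met-Met libraries, against 15.6, 12, 17.4 and 27.6 in Control libraries (0.17, SE 0.28, limma adjusted p = 0.702). Control 4 held the most Slc15a2 of all 8 libraries. Of 20 genes of peptide transport and hydrolysis, 3 were called higher and 1 lower, beside 10.8% and 9.3% of all genes, with a median of 0.13. Cndp2, a cytosolic dipeptidase, was at 50.9, 40.4, 39.7 and 42.6 in Met-Met libraries, against 24.7, 25.3, 31.9 and 26.9 in Control libraries (0.66, SE 0.11, limma adjusted p = 0.00245). Lap3, the leucine aminopeptidase, was at 43.9, 42.4, 44.6 and 42.6 in Met-Met libraries, against 30.4, 26.9, 30.8 and 34.1 in Control libraries (0.50, SE 0.09, limma adjusted p = 0.00367). Both peptidases were higher in every Met-Met library. Dpep1, a membrane dipeptidase, fell by 0.56 (SE 0.14, limma adjusted p = 0.0168), a call lost without Control 1 (adjusted p 0.0548); without Control 4, 2 genes of the list were called lower.

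Of 20 milk protein genes, the most abundant in the gland, 3 were called higher and none lower, beside 10.8% and 9.3% of all genes. The 20 genes lay mostly above 0 (17 of 20), with a median of 0.49. Together they made up 40.8% ± 3.75 of summed FPKM in Met-Met libraries, against 35.0% ± 6.88 in Control libraries (SD, n = 4 each). Btn1a1, butyrophilin, which coats milk fat globules, was at 701, 558, 567 and 686 in Met-Met libraries, against 364, 345, 327 and 316 in Control libraries (0.89, SE 0.10, limma adjusted p = 0.000357). Lalba, α-lactalbumin, the cofactor that turns galactosyltransferase into lactose synthase, was at 695, 838, 544 and 1433 in Met-Met libraries, against 196, 217, 374 and 470 in Control libraries (1.48, SE 0.48, limma adjusted p = 0.0468). Neither gene overlapped between the groups. The Lalba call was lost without Met-Met 1 (adjusted p 0.0735), Met-Met 2 (0.0880), Met-Met 4 (0.125), Control 1 (0.130), Control 2 (0.122) or Control 3 (0.0628), and the number of milk protein genes called was 1 without any of these other than Control 3. Csn2, β-casein, was at 54819, 52911, 41470 and 50538 in Met-Met libraries, against 25147, 33637, 52383 and 43896 in Control libraries (0.41, SE 0.24, limma adjusted p = 0.236). Wap, whey acidic protein, was at 31256, 33013, 15746 and 35555 in Met-Met libraries, against 9984, 16227, 35687 and 24690 in Control libraries (0.50, SE 0.38, limma adjusted p = 0.376). For Csn2 and Wap, Control 1 and 2 were low while Control 3 was within or above the Met-Met range, so the groups overlapped.

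Genes that supply lactose and milk fat rose in part. Of 13 genes of lactose and sugar nucleotide synthesis, all were above 0 and 6 were called higher (10.8% of all genes were called higher), with a median of 0.38. Slc2a1, the main glucose transporter of the alveolar cell, was at 33.8, 30.5, 25.3 and 36.3 in Met-Met libraries, against 13.7, 15.4, 19.7 and 13.9 in Control libraries (0.96, SE 0.20, limma adjusted p = 0.00670). The Slc2a1 groups did not overlap. The count was 3 without Met-Met 1, Met-Met 4, Control 1 or Control 2. Of 29 genes of milk fat synthesis, 11 were called higher and none lower, beside 10.8% and 9.3% of all genes, with a median of 0.40. Acly, which makes cytosolic acetyl-CoA, was at 413, 400, 487 and 675 in Met-Met libraries, against 234, 198, 184 and 234 in Control libraries (1.19, SE 0.18, limma adjusted p = 0.00197). Slc25a1, which exports citrate from mitochondria for it, rose by 1.19 (SE 0.23), the desaturase Fads2 by 0.99 (SE 0.15) and the elongase Elovl1 by 0.94 (SE 0.14), with limma adjusted p-values of 0.00468, 0.00201 and 0.00190. The count for milk fat was 7 without Met-Met 4, Control 1 or Control 2. Without Met-Met 4, 2 milk fat genes were called lower, and 3 were called lower within the libraries with lymphocyte RNA.

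**Figure D5:**
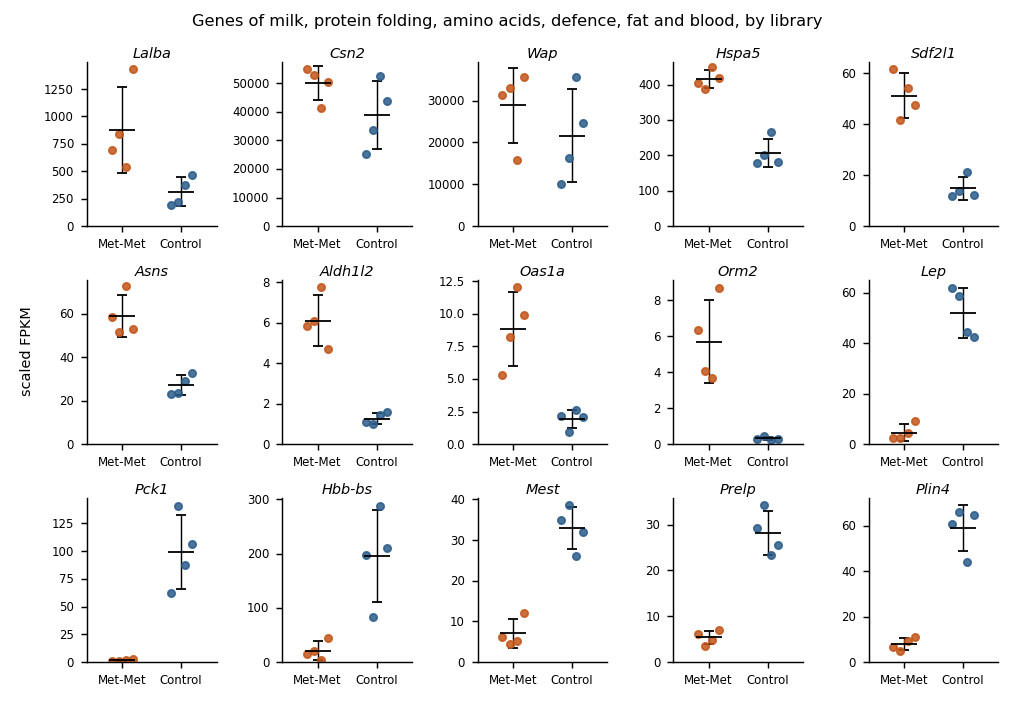
Scaled FPKM of 15 genes in each library, Met-Met on the left and Control on the right, 1 dot a library, with black bars for the mean ± SD (n = 4 each): milk proteins, ER chaperones, amino acid response, interferon, acute phase, adipocyte, erythrocyte and matrix genes. Csn2 and Wap overlap between the groups, while Orm2, Aldh1l2, Lep and Pck1 do not.

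Of the upstream regulators of milk genes, Elf5, a transcription factor of alveolar cells, was at 432, 413, 397 and 386 in Met-Met libraries, against 273, 299, 294 and 282 in Control libraries (0.50, SE 0.11, limma adjusted p = 0.00890), although not past the threshold without the library scaling (adjusted p 0.0697) or with quantile normalization (0.0580). Stat5a was at 63.9, 60.5, 48.1 and 63.6 in Met-Met libraries, against 62.2, 51.1, 59.2 and 63.2 in Control libraries (-0.00, SE 0.11, limma adjusted p = 0.991). Ghr, the growth hormone receptor, was lower, at 50.6, 53.2, 47.1 and 67.1 in Met-Met libraries, against 104, 93.0, 113 and 104 in Control libraries (-0.92, SE 0.14, limma adjusted p = 0.00199). In all, 4 of 18 genes of the JAK2, STAT5 and prolactin list were called higher and 3 lower, beside 10.8% and 9.3% of all genes, with a median of -0.08, and 2 were called higher without Met-Met 1, Met-Met 2 or Control 1. Of 45 genes of PI3K, AKT and mTORC1 signalling, 5 were called higher and 2 lower, which is near or below the 10.8% and 9.3% of all genes. Akt1, the kinase, was at 127, 105, 107 and 112 in Met-Met libraries, against 72.9, 78.4, 85.4 and 79.5 in Control libraries (0.51, SE 0.08, limma adjusted p = 0.00228). Rheb, the GTPase that activates mTORC1, rose by 0.46 (SE 0.07, limma adjusted p = 0.00194) and Lamtor1, of the lysosomal Ragulator, by 0.45 (SE 0.08, limma adjusted p = 0.00290). Mtor was at 11.7, 11.9, 11 and 11.7 in Met-Met libraries, against 10.9, 10.7, 10.8 and 11.6 in Control libraries (0.07, SE 0.07, limma adjusted p = 0.482). The number of this list called higher was 3 without any 1 library other than Met-Met 1 or Control 3, and the number called lower was 1 without any 1 Met-Met library or Control 3 and 0 without Control 1 or Control 2.

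Orm2, an acute phase glycoprotein, had the highest fold among genes whose groups did not overlap, at 6.36, 4.08, 3.70 and 8.71 in Met-Met libraries, against 0.260, 0.469, 0.256 and 0.297 in Control libraries (2.29, SE 0.19, limma adjusted p = 7.74e-05). Every Control value was under the mean of 1 scaled FPKM that genes needed over the 12 libraries. Orm2 thus passed that filter through the Met-Met libraries, where it is high. Saa2 and Saa1, serum amyloid genes named after their values were seen, had still larger folds but overlapping groups. Saa2 was at 95.0, 136, 36.4 and 515 in Met-Met libraries, against 4.70, 4.75, 20.6 and 43.3 in Control libraries (3.24, SE 0.81, limma adjusted p = 0.0170), a call lost without Control 1 (adjusted p 0.0557) or Control 2 (0.0555). Saa1 was at 102, 106, 32.0 and 353 in Met-Met libraries, against 4.90, 5.84, 28.1 and 47.0 in Control libraries (2.79, SE 0.79, limma adjusted p = 0.0283), lost without any 1 library other than Met-Met 3, Control 3 or Control 4 (adjusted p 0.0580 to 0.0866). The near-identical Saa genes share reads, so how the reads were split between them is uncertain. Lcn2, lipocalin, which binds bacterial siderophores, was at 960, 857, 591 and 981 in Met-Met libraries, against 303, 297, 505 and 484 in Control libraries (1.11, SE 0.23, limma adjusted p = 0.00722).

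Of 21 interferon-stimulated genes tested, 8 were called higher and none lower, beside 10.8% and 9.3% of all genes, with a median of 0.60. Oas1a, which makes the activator of RNase L, was at 5.33, 8.19, 12 and 9.91 in Met-Met libraries, against 2.18, 0.962, 2.58 and 2.10 in Control libraries (1.72, SE 0.23, limma adjusted p = 0.000935). Bst2, tetherin, which holds budding virus at the cell surface, was at 83.7, 75, 80.0 and 89.1 in Met-Met libraries, against 28.3, 27.4, 53.8 and 42.7 in Control libraries (1.14, SE 0.19, limma adjusted p = 0.00235). Ifih1, the RNA sensor MDA5, was at 9.36, 10.2, 11.3 and 9.49 in Met-Met libraries, against 6.43, 5.86, 5.96 and 6.35 in Control libraries (0.63, SE 0.10, limma adjusted p = 0.00250). None of the 3 overlapped between the groups. Met-Met 3 was the highest library of the list, with a mean log2(scaled FPKM + 1) of 3.69. The number called was 5 without Met-Met 3, Met-Met 4, Control 1 or Control 2, and 13 without Met-Met 1. The letters of the interferon-stimulated response element, TTTC repeated after 2 further bases or GAAA likewise on the other strand, were found in 9 of 17 members with a RefSeq promoter, against 3.15% of tested genes, and in 3 of the 6 such members called higher. In Oas1a (chr5:120907526-120907775, minus strand) and Bst2 (chr8:71537473-71537722, minus strand) overlapping matches, in capitals, form a longer run.
Oas1a: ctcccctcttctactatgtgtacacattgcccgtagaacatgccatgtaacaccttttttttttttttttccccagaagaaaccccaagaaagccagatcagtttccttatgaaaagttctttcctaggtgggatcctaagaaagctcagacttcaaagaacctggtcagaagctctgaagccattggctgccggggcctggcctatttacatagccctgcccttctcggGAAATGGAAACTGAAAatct
Bst2: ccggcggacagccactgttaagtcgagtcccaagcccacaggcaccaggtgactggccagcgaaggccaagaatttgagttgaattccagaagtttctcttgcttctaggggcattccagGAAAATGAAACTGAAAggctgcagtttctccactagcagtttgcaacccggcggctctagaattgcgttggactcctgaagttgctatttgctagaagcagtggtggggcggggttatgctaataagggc

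Genes of mitochondrial energy supply shifted upwards by a small amount. Of 78 genes of oxidative phosphorylation, 76 were above 0 and 29 were called higher (10.8% of all genes were called higher), with a median of 0.25. Atp5g1, of the c ring of ATP synthase, was at 114, 86.5, 97.5 and 105 in Met-Met libraries, against 41.8, 53.4, 57.8 and 47.2 in Control libraries (1.00, SE 0.12, limma adjusted p = 0.000533). Cyc1, cytochrome c1, rose by 0.55 (SE 0.10, limma adjusted p = 0.00360). Of 75 mitochondrial ribosomal protein genes, 26 were called higher and 1 lower, beside 10.8% and 9.3% of all genes, with a median of 0.24. Mrps11 was at 13.7, 14.8, 13.4 and 13.8 in Met-Met libraries, against 9.32, 8.06, 8.91 and 10.1 in Control libraries (0.57, SE 0.07, limma adjusted p = 0.000911). Both counts turn on the scaling: without it 5 genes of oxidative phosphorylation and 6 of the mitochondrial ribosome were called higher, and with quantile normalization 8 and 24. The count for oxidative phosphorylation was 15 without Met-Met 4 or Control 2, 17 without Met-Met 1 and 19 without Control 1, and that for the mitochondrial ribosome 17 without Control 2. The 1 gene of the mitochondrial ribosome called lower lost its call without any 1 library.

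White adipocyte genes fell: 13 of 18 markers were called lower and none higher (9.3% of all genes were called lower), with a median of -1.16. Pck1, phosphoenolpyruvate carboxykinase, which makes glycerol for triglyceride in fat cells, had the lowest fold of all named genes, at 1.10, 0.667, 1.75 and 2.37 in Met-Met libraries, against 61.9, 141, 87.5 and 106 in Control libraries (-5.33, SE 0.44, limma adjusted p = 7.74e-05). Lep, leptin, the satiety hormone of fat, was at 2.31, 2.41, 4.29 and 9.24 in Met-Met libraries, against 62.0, 58.9, 44.6 and 42.3 in Control libraries (-3.39, SE 0.32, limma adjusted p = 0.000130). Sncg, γ-synuclein, also abundant in fat, was at 3.56, 2.43, 1.84 and 5.46 in Met-Met libraries, against 73.6, 72.2, 58.3 and 47.7 in Control libraries (-3.94, SE 0.26, limma adjusted p = 1.55e-05). Adipoq, adiponectin, fell less, at 46.7, 26.7, 69.8 and 105 in Met-Met libraries, against 193, 178, 153 and 166 in Control libraries (-1.63, SE 0.31, limma adjusted p = 0.00474). The markers thus fell by unequal amounts: Fabp4, the fatty acid binding protein, stood at -1.2 and Pparg, the adipocyte master regulator, at -0.66, while Slc2a4, the insulin-responsive glucose transporter, was at -0.00 and Cfd, adipsin, at 0.62, neither called. Npr3, the natriuretic peptide clearance receptor, was at 0.942, 0.911, 1.56 and 2.54 in Met-Met libraries, against 32.0, 35.8, 21.4 and 29.0 in Control libraries (-3.64, SE 0.22, limma adjusted p = 1.34e-05). Nnat, neuronatin, was at 3.25, 0.911, 2.70 and 2.07 in Met-Met libraries, against 27.8, 28.0, 13.6 and 28.1 in Control libraries (-2.98, SE 0.26, limma adjusted p = 8.24e-05). For Pck1, Lep, Sncg, Adipoq, Npr3 and Nnat, every Met-Met library was below every Control library. The median of the marker list was -1.13 within the libraries with lymphocyte RNA and -1.26 within those without, and 12 to 14 markers were called lower when any 1 library was left out.

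Globin and other erythrocyte genes were lower as well, with all 5 tested markers called lower (9.3% of all genes were called lower) and a median of -3.04. Hbb-bs, a β-globin, was at 14.6, 20.9, 3.83 and 44.4 in Met-Met libraries, against 198, 83.5, 288 and 211 in Control libraries (-3.44, SE 0.57, limma adjusted p = 0.00258). Alas2, the first enzyme of erythroid haem synthesis, was at 1.07, 0.833, 0.430 and 1.06 in Met-Met libraries, against 3.67, 2.56, 5.84 and 4.62 in Control libraries (-1.46, SE 0.20, limma adjusted p = 0.000968). The groups did not overlap, and all 5 calls held when any 1 library was left out; the near-identical globin genes share reads. Tfrc, the transferrin receptor that brings iron into cells, was higher, at 216, 150, 140 and 178 in Met-Met libraries, against 47.7, 71.3, 74.9 and 60.2 in Control libraries (1.41, SE 0.22, limma adjusted p = 0.00204). Of 14 endothelial markers, 5 were called lower and none higher, beside 9.3% and 10.8% of all genes, with a median of -0.30. Plvap, of endothelial fenestrae, was at 15.6, 11.8, 13.6 and 15.6 in Met-Met libraries, against 26.3, 21.5, 20.5 and 21.7 in Control libraries (-0.63, SE 0.12, limma adjusted p = 0.00527), and Cldn5, a tight junction protein, fell by 0.97 (SE 0.21, limma adjusted p = 0.00929). The endothelial count was 3 without Met-Met 2.

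Part of the extracellular matrix fell: 12 of 36 genes of collagens and matrix were called lower and none higher, beside 9.3% and 10.8% of all genes, with a median of -0.22. Thbs1, thrombospondin, was at 15.9, 9.36, 11.6 and 13.1 in Met-Met libraries, against 45.0, 34.5, 43.5 and 53.0 in Control libraries (-1.74, SE 0.18, limma adjusted p = 0.000219). Lox, which cross-links collagen, was at 12.1, 10.9, 11.3 and 13.0 in Met-Met libraries, against 26.8, 26.7, 20.9 and 20.4 in Control libraries (-0.94, SE 0.14, limma adjusted p = 0.00167). Nid1, nidogen of the basement membrane, fell by 0.74 (SE 0.11, limma adjusted p = 0.00135). Prelp, a proteoglycan outside the list, was at 6.04, 3.61, 4.89 and 7.06 in Met-Met libraries, against 29.2, 34.3, 23.3 and 25.6 in Control libraries (-2.2, SE 0.19, limma adjusted p = 7.74e-05). These 4 genes were lower in every Met-Met library, whereas Col1a1, the main fibrillar collagen chain, was at 245, 237, 164 and 265 in Met-Met libraries, against 233, 208, 190 and 209 in Control libraries (0.10, SE 0.17, limma adjusted p = 0.722). The count was 4 without Control 1 and 6 without Met-Met 2, Met-Met 3 or Control 2. Of 14 fibroblast markers, 3 were called lower and none higher, beside 9.3% and 10.8% of all genes, with a median of -0.22. Among those called lower were Dpt, dermatopontin (-1.10, SE 0.18, limma adjusted p = 0.00237), and Gsn, gelsolin (-0.94, SE 0.14, limma adjusted p = 0.00152).

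Genes of cell division moved in both directions, and their number of calls changed when any 1 library was left out. Of 39 tested, 6 were called lower and 1 higher, beside 9.3% and 10.8% of all genes, with a median of -0.29. The 27 below 0, mostly genes of mitosis, held all 6 called lower, such as Ccnb2 (-0.85) and Cdc20 (-0.92). The 12 above 0 belong to S phase, when DNA is copied, such as Mcm3 (0.50), Pcna (0.48) and Rrm2 (0.33). The mean log2(scaled FPKM + 1) of the list was 3.18 in Met-Met 3 and 2.2 to 2.51 in the other Met-Met libraries, against 2.73 to 2.82 in Control libraries. Without Met-Met 3, 20 genes were called lower; without Met-Met 1, Met-Met 2 or Control 2 it was 2, and without Control 1 it was 3. The 1 gene called higher, Gins2, lost its call without any 1 library. The median was 0.28 over genes with a mean of 5 FPKM or more. Mki67, the proliferation antigen, was at 11.8, 11.6, 22.5 and 15.8 in Met-Met libraries, against 17.5, 21.4, 21.0 and 21.0 in Control libraries (-0.41, SE 0.20, limma adjusted p = 0.155). Cenpa, the centromeric histone, was at 1.54, 1.74, 4.18 and 2.42 in Met-Met libraries, against 5.04, 5.78, 5.5 and 5.60 in Control libraries (-0.96, SE 0.22, limma adjusted p = 0.0123). Both genes had Met-Met 3 as their highest Met-Met library. Among 14 imprinted genes, 3 were called lower and 1 higher, beside 9.3% and 10.8% of all genes, with a median of -0.17. The 1 called higher was not called without Control 1 or Control 2. Mest, expressed from the paternal allele and high in growing fat, was at 6.22, 4.48, 5.29 and 12.2 in Met-Met libraries, against 35.0, 38.6, 26.1 and 32.1 in Control libraries (-2.15, SE 0.27, limma adjusted p = 0.000746).

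Long noncoding RNAs were low, and few were called. Of 888 annotated lncRNA genes tested, 33 were called (3.72%), 9 higher (1.01%) and 24 lower (2.7%), with a median of -0.19, here on log2(scaled FPKM + 0.5). Pinc, the pregnancy-induced noncoding RNA of the mouse mammary gland, was at 5.84, 6.6, 3.45 and 6.03 in Met-Met libraries, against 1.77, 0.508, 0.772 and 0.929 in Control libraries (2.03, limma adjusted p = 0.00157). C530043A13Rik was at 3.83, 4.05, 1.46 and 3.49 in Met-Met libraries, against 1.29, 0.488, 0.297 and 1.08 in Control libraries (1.53, limma adjusted p = 0.0169), a call lost without Met-Met 1 (adjusted p 0.0585) or Met-Met 4 (0.0551). Neither gene overlapped between the groups. Gm19531, annotated as antisense, was at 0.891, 2.31, 2.15 and 1.88 in Met-Met libraries, against 0.0906, 0.0474, 0.0677 and 0.154 in Control libraries (1.92, limma adjusted p = 0.00130); the counting is not stated to use strand, so its reads and those of the opposite strand cannot be told apart. The Control values of Gm19531 were all under the minimum mean of 0.5, so it passed that filter through the other groups. Of those lower, Gm47664, annotated as sense intronic, was at 0.617, 0.697, 0.603 and 0.449 in Met-Met libraries, against 2.16, 2.09, 1.51 and 1.43 in Control libraries (-1.06, limma adjusted p = 0.00458). The number called ran from 11 without Met-Met 4 or Control 1 to 86 without Met-Met 2, the library with high Gm26917, and no annotated lncRNA was called by limma among the libraries without lymphocyte RNA (60 at an unadjusted p under 0.05).

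Of 415 lncRNA loci that the authors assembled, 8 were called (1.93%), 1 higher (0.241%) and 7 lower (1.69%). XLOC_050428, an intronic locus, was at 0.180, 0.223, 0 and 0 in Met-Met libraries, against 2.04, 1.35, 2.21 and 2.07 in Control libraries (-2.02, limma adjusted p = 4.85e-05). XLOC_035192 was at 0.327, 0.555, 0.420 and 0.372 in Met-Met libraries, against 1.31, 0.847, 1.51 and 1.74 in Control libraries (-0.99, limma adjusted p = 0.0101). Both were lower in every Met-Met library. The number called ran from 2 without Control 1 or Control 2 to 10 without Control 4, and by limma none was called over loci with a mean of 1 FPKM or more (13 at an unadjusted p under 0.05).

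Within genes, the share held by single transcripts was called for 4 of 9715 transcripts (0.0412%), 1 higher and 1 lower for each of Plin4 and Lama2 (0.0206% in each direction). For Plin4, the higher and the lower call are the same ratio with its sign turned (4.84 and -4.84), so they are not separate results. The number of transcripts called was 11 without Control 2 or Control 3, 8 without Met-Met 2 or Control 1 and 7 without Met-Met 3. Among the libraries without lymphocyte RNA the number was also 11, and none of the 4 was among them. Plin4, a lipid droplet coat protein of white fat, fell as a gene, at 6.69, 4.72, 9.18 and 11.1 in Met-Met libraries, against 60.8, 66.1, 44.3 and 64.9 in Control libraries (-2.79, SE 0.26, limma adjusted p = 0.000129). Its transcript ENSMUST00000190703 was listed at 0 in all 4 Met-Met libraries, against 38.4, 41.3, 29.8 and 41.3 in Control libraries, 62.5% to 67.4% of the gene. Its other transcript was at 7.93 ± 2.80 in Met-Met libraries, against 21.3 ± 4.69 in Control libraries (SD, n = 4 each). For Lama2, a laminin chain of basement membranes, transcript ENSMUST00000219763 was listed at 0 in all Met-Met libraries, against 15.4, 8.56, 9.15 and 9.16 in Control libraries, 35.0% to 50.1% of the gene, and the more abundant of its other transcripts was at 10.7 ± 1.27 in Met-Met libraries, against 13.9 ± 1.18 in Control libraries (SD, n = 4 each). Both transcripts were also at or near 0 in the Met group (0 to 0.00551), so they passed the minimum mean through the Control libraries alone. A value listed at 0 can be a failed estimate. Of all 55869 transcripts, 3 were under 0.01 FPKM in every Met-Met library and at 1 or more in every Control library, from Plin4, Lama2 and Rad52, and none the other way round.

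The Met group shared the deficient diet and the injections, and its comparison with Met-Met uses the same Met-Met libraries. Between Met-Met and Met, 1377 genes were called (11.7%), 701 higher (5.93%) and 676 lower (5.72%), and 422 of the 2376 genes called against Control were among them; the count was 664 without Met-Met 4. For cholesterol synthesis, the median was 1.16 against Control and 1.13 against Met, with 15 of 23 called higher than in Met. For interferon-stimulated genes it was 0.60 against Control and 0.69 against Met, with 12 of 21 called higher than in Met. ER chaperones had a median of 0.74 against Control and 0.23 against Met, with none called by limma against Met (8 of 26 at an unadjusted p under 0.05), and tRNA synthetases 0.52 and -0.01, with none called by limma against Met (2 of 20 at an unadjusted p under 0.05). The Met libraries were uneven. The mean log2(scaled FPKM + 1) of ER chaperones was 5.78, 5.92, 5.71 and 6.46 in Met 1 to 4, against 6.09 to 6.27 in Met-Met libraries. Cholesterol synthesis was at 4.18 in Met 4, which held lymphocyte RNA, and at 3.23 to 3.68 in the other Met libraries. Skeletal muscle markers were at 5.05 in Met 2, against 0.165 to 0.222 in the other Met libraries. For ATF4 targets the median was 0.41 against Control and -0.39 against Met, with 7 of 36 called lower than in Met. Fdps was 1.61 above Control and 1.31 above Met (limma adjusted p = 0.00624 against Met), Orm2 2.29 above Control and 2.52 above Met (0.000118), and Lalba 1.48 above Control and 2.97 above Met (0.00396). Aldh1l2 was 1.64 above Control and stood at -0.00 against Met (limma adjusted p = 0.990). Among fat genes, Pck1 stood at -5.33 against Control and -3.18 against Met (0.00213), while Lep stood at -3.39 against Control and 1.07 above Met (0.0476). Odc1 was 0.85 above Control and fell by 1.08 against Met (0.00133).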

How the data were processed

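Total RNA was taken with TRIzol and sequenced from standard Illumina libraries, per the labels' protocols. The authors deposited FPKM per transcript for 55869 protein-coding transcripts and 2 lncRNA tables (1822 annotated and 6871 assembled transcripts). Per the submitters' processing notes, StringTie 1.3.1, HISAT2 2.0.4 and Bowtie2 2.2.8 were used; mm9 and GRCm38 are both listed there with no role, so no coordinates are taken from the files. Gene names were taken from the reference by gene identifier for 21816 of 21956 genes, and from the files for the rest. The gene lists, members and comparison were chosen with earlier results of these data known, so lists are described by counts and medians and not tested. FPKM were summed per gene, divided by 1 factor per library (its median ratio to the mean library), and fitted as log2(value + 1), or + 0.5 for lncRNA and transcript shares, with limma 3.58.1 in R 4.3.3 (3 group means over 12 libraries, intensity trend). The pseudocount understates changes of low genes. Genes needed a mean of 1 scaled FPKM, lncRNAs 0.5, and transcripts and the rest of their gene 1 each. These means ran over all 12 libraries, so a gene or locus high in 1 group alone could pass through that group. The code was tested on simulated data. Figures used Python 3.11.15, numpy 2.4.6, pandas 2.3.3 and matplotlib 3.10.9. Named genes were the 15 highest and 15 lowest called fold changes without overlap between the groups and without clone names, up to 6 called members of each list by smallest p, and a fixed set of mammary genes; the text gives most of these. Hmgcs1, Sqle, Hspa5, Saa1, Saa2 and list members given by their log2 fold change alone were added after their values were seen. Promoters are from RefSeq (GRCm38.p6), and motif letters were searched on both strands of the 250 bases upstream. Alternatives changed the scaling, pseudocount, filter, libraries, weights and covariates. Those that keep only the libraries with lymphocyte RNA, and those without such libraries or without high Gm26917 in the lncRNA and transcript tables, were chosen after seeing the data. A few of these genes are left out of the text.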

Additional observations from a re-analysis of the deposited data

Results flagged for a closer look

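Among 392 groups of 4 libraries examined, 20 held 1 library far from the other 3, measured as its gap to the nearest library over the group's range; chance gives about 1 in 20, so the number is about what chance gives. All values are scaled FPKM. Met-Met 3 held 4 of the 20: Atf5 at 114 (67.6 to 74.6 in the other Met-Met libraries), Trib3 at 18.3 (6.47 to 7.81), Cth at 10.2 (3.39 to 4.55) and Slc1a5 at 49.6 (22.5 to 24.8). Met-Met 4 held Gnmt at 18 (12.7 to 13.0), Cav1 at 23.7 (13.3 to 15.1) and XLOC_069453 at 0.813 (0.211 to 0.310), and Met-Met 1 held Canx at 211 (166 to 173).

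Control 3 held 5: Nnat at 13.6 (27.8 to 28.1 in the other Control libraries), Acat2 at 14.6 (21.0 to 22.1), Calr at 270 (214 to 224), Col4a2 at 84.3 (100 to 101) and Lyve1, a lymphatic marker, at 6.68 (1.95 to 2.70). Control 1 held Sgce at 5.99 (4.19 to 4.39), Mrpl53 at 18.6 (20.4 to 20.7) and Mki67 at 17.5 (21.0 to 21.4). Control 4 held Slc1a3 at 5.83 (7.13 to 7.24) and Slc1a4 at 7.45 (4.74 to 5.08). Control 2 held XLOC_106727 at 1.12 (1.65 to 1.73) and XLOC_042708 at 1.32 (0.637 to 0.739).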

How the results depend on the processing

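The 2376 coding calls became 4066 with library quality weights, 1396 with the B cell markers as a covariate, 0 with the adipocyte markers as a covariate and 4 without the libraries that hold lymphocyte RNA; leaving out 1 library gave 1305 to 2469. Counts stayed within 1.5 times under the other scalings, pseudocounts and filters, in a fit of the 8 libraries alone, with 1 transcript per gene (1721 calls) and within the libraries with lymphocyte RNA (1856 calls), though the split moved from 1277 higher and 1099 lower to 499 and 1583 without scaling and to 1188 and 532 where the mean had to reach 5 FPKM. With the adipocyte covariate, 7 named genes changed sign: Slc7a10 (0.30), Slc1a3 (0.16), Bub1b (0.0749), Cdc20 (0.25), Cenpe (0.12), Cat (0.0275) and Adipoq (0.53), and Adipoq is itself part of that covariate. Against Met, 1377 calls became 852 with the replicate block and 664 to 1310 when 1 Met-Met or Control library was left out.

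The labels do not say whether the replicate numbers pair the libraries. Deviations from the group means of same-numbered Met-Met and Control libraries correlated at -0.02, -0.16, 0.01 and 0.17. With 4 libraries a group, these values cannot settle whether a pairing exists. With the number as a replicate block, coding calls were 1691, annotated lncRNA calls 14, assembled lncRNA calls 4 and transcript share calls 4.

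The 33 annotated lncRNA calls became 71 without scaling, 20 with quantile normalization, 8 where the mean had to reach 1 FPKM, 0 without the libraries with lymphocyte RNA and 77 without those with high Gm26917; leaving out 1 library gave 11 to 86. The 8 assembled lncRNA calls became 13 with quantile normalization, 0 at that mean (13 at an unadjusted p under 0.05), 4 in the 8 libraries alone, 3 with the B cell covariate, 0 without the libraries with lymphocyte RNA (26 at an unadjusted p under 0.05) and 3 without those with high Gm26917; leaving out 1 library gave 2 to 10. The 4 transcript share calls became 11 without the libraries with lymphocyte RNA, with none of the 4 among them, and 5 to 11 when 1 library was left out. The causes of these shifts were not tested. Read totals are unknown, so no counting error can be given.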

Other observations

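Other gene groups held a few called members. Of 19 circadian clock genes, 2 were called higher and 2 lower (10.8% of all genes were called higher and 9.3% lower), with a median of 0.23. Nr1d1, the repressor REV-ERBα, was at 2.19, 3.22, 1.63 and 2.99 scaled FPKM in Met-Met libraries, against 8.53, 6.52, 11.9 and 7.62 in Control libraries (-1.46, SE 0.24, limma adjusted p = 0.00258). Dbp, a clock-controlled factor, fell by 0.79 (SE 0.17, limma adjusted p = 0.00968), and Cry1, a clock repressor, rose by 0.64 (SE 0.12, limma adjusted p = 0.00504), a call lost without the library scaling (adjusted p 0.051); the labels give no hour of collection. Without Control 4, 5 clock genes were called higher. Of 18 glucocorticoid-induced genes, 1 was called higher, Lcn2, and 1 lower, Sult1a1, a sulfotransferase, at 12.2, 8.65, 8.88 and 14.4 in Met-Met libraries, against 40.4, 36.7, 31.3 and 29.6 in Control libraries (-1.58, SE 0.18, limma adjusted p = 0.000484).

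Of 33 antioxidant and glutathione genes, 6 were called higher and 4 lower, beside 10.8% and 9.3% of all genes, with a median of 0.24. Prdx1, a peroxiredoxin, was at 187, 189, 199 and 217 in Met-Met libraries, against 129, 122, 137 and 133 in Control libraries (0.60, SE 0.09, limma adjusted p = 0.00204), and Gsr, glutathione reductase, rose by 0.62 (SE 0.11, limma adjusted p = 0.00284). Cat, catalase, was at 34.0, 29.9, 44.1 and 42.7 in Met-Met libraries, against 72.0, 69.4, 58.1 and 60.5 in Control libraries (-0.78, SE 0.15, limma adjusted p = 0.00458). The number called higher was 3 without Met-Met 1, Control 1 or Control 2, and the number called lower was 2 without Control 1, Control 2 or Control 3. Krt15, a basal keratin, was at 28.4, 21.0, 16.8 and 13.7 in Met-Met libraries, against 2.92, 4.84, 2.51 and 4.31 in Control libraries (2.16, SE 0.31, limma adjusted p = 0.00133), while 12 myoepithelial markers had a median of 0.01, which is below 0 without the library scaling (-0.12). Rnase1, a secreted ribonuclease, was at 49.0, 39.0, 33.6 and 25.6 in Met-Met libraries, against 6.09, 5.99, 15.1 and 18.6 in Control libraries (1.72, SE 0.35, limma adjusted p = 0.00688). Of 9 tested B cell markers and 12 T cell markers none was called by limma (6 and 11 at an unadjusted p under 0.05), with medians of -1.47 and -1.44. Without Control 4, all 9 and all 12 were called lower, and likewise within the libraries with lymphocyte RNA. Of 11 macrophage markers, 2 were called lower and none higher, beside 9.3% and 10.8% of all genes. Their median was -0.01, with 4 of 11 above 0. Csf1r, the receptor for the macrophage growth factor, was among those called lower (-0.68, SE 0.12, limma adjusted p = 0.00336).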
